A study of Mus musculus with 4 samples.

Results

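The genes described here encode the CD3 chains of the T cell receptor complex: Cd3e, Cd3d and Cd3g, which lie side by side on chromosome 9, and Cd247 on chromosome 1, which encodes the zeta chain. Their chromatin was read from 4 ATAC-seq peak lists of mouse thymocytes, 2 of CD4+CD8+ double positive (DP) cells and 2 of CD4-CD8- double negative (DN) cells. A peak was taken when its midpoint fell inside the mm10 span of a member gene or within 40 kb of either end, with the chromosome 9 genes treated as 1 cluster. This rule took 83 of the 182009 peaks in the lists, 22 in the Cd3 cluster and 61 in the Cd247 window, which merged into 36 of 107621 regions. All samples were sorted from wild-type C57BL/6J thymus of mice aged 5 to 7 weeks, and no label says whether they were handled as a single batch. DN cells were sorted as CD25+, with or without CD44, the stages at which the T cell receptor beta chain is assembled, and DP cells are the later stage. ATAC-seq marks open chromatin by the places where a transposase can cut and tag the DNA. Separate mice are not named for the samples within a group, and their spread could be that of repeat preparations.

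The lists held 39709 and 70376 peaks in DP 1 and DP 2, against 38801 and 33123 in DN 1 and DN 2. No read counts come with them, so depth is unknown and a peak that a list lacks may be a site with too few reads. Gene starts of stage markers did not separate the lists cleanly. The start of Cd8a had a peak within 1000 bp in both DP lists and in neither DN list, while the starts of Il2ra (which encodes CD25) and Ptcra (part of the pre-T cell receptor) had one in DP 2 and DN 1 and in neither DP 1 nor DN 2. Of markers of other cell types with a start in the table, the 1 B cell, 2 myeloid and 2 stromal ones had 0 peaks in every list. Among 3 genes listed as NK and innate lymphoid markers, DP 1 held the start of Il7r, DN 1 those of Il7r and Klrb1c and DN 2 that of Il7r. Il7r is not particular to those cells, so a peak at its start does not mark them. Among 3 erythroid markers, the start of Klf1 was held by DP 1, DP 2 and DN 2. Of all protein-coding gene starts, DP 1 and DP 2 held 49 and 51.7%, against 39.3 and 27.8% in DN 1 and DN 2. Whether cells of other types were in the samples, and their part in the results, was not tested.

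CD3 chains carry no antigen specificity of their own. The epsilon chain pairs with delta or with gamma, zeta forms a homodimer, and the assembled complex brings the receptor chains to the cell surface. Their cytoplasmic tails hold tyrosine motifs that the kinase Lck phosphorylates and to which the kinase Zap70 then binds. The same chains serve the pre-T cell receptor at the DN stage and the alpha-beta receptor at the DP stage. Enhancers active in T cells have been described at the 3′ end of the CD3 delta gene and, for the human gene, 3′ of CD3E.

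The members differ in layout. Cd3g (chr9:44969572-44980431, minus strand) and Cd3d (chr9:44981769-44987052, plus strand) are divergent, with starts 1355 bp apart. Cd3e (chr9:44998735-45009663, minus strand) begins 27825 bp from the Cd3d start and ends toward it. Cd247 (chr1:165779952-165871153, plus strand) is far longer, and its listed start at 165788681 lies 8729 bp inside the annotated span. The RefSeq table (GRCm38, the same build as mm10) gives spans and starts but not exons, so positions inside a gene are not divided here into exon and intron.

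The 250 bases before each start are shown because they differ between the lists, from a promoter open in all 4 lists to promoters that no DN list holds. They are written 5′ to 3′ in the direction of the gene, from RefSeq GRCm38.p6, at chr9:45009612-45009861 (minus strand) for Cd3e, chr9:44981536-44981785 (plus) for Cd3d, chr9:44980432-44980681 (minus) for Cd3g and chr1:165788431-165788680 (plus) for Cd247. Capitals mark matches, on either strand, to the ETS core GGAAGT and to the E-box CACCTG.
Cd3e: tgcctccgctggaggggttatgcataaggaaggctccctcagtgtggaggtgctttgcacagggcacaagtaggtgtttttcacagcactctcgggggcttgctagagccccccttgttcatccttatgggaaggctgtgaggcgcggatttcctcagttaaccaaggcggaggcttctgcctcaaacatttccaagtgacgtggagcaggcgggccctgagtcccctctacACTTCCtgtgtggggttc
Cd3d: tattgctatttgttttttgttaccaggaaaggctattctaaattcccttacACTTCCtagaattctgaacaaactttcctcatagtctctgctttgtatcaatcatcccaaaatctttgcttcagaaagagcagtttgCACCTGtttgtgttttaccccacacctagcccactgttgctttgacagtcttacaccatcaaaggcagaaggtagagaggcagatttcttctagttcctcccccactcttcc
Cd3g: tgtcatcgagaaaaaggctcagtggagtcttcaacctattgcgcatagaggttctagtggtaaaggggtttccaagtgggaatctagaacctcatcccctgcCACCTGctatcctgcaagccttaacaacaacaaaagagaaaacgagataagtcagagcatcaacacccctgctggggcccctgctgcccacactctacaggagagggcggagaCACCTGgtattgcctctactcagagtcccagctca
Cd247: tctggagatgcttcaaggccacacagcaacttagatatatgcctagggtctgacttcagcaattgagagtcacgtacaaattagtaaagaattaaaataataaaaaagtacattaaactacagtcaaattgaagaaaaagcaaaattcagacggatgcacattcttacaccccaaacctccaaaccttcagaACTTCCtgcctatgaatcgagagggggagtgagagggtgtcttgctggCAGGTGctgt

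Of these bases, peaks of DP 1 and DP 2 covered 139 and 250 at Cd3e, against 0 and 189 in DN 1 and DN 2. At Cd3d, DP 2 covered 135 and the other lists 0. At Cd3g, each DP list covered 250 and each DN list 0. All 250 bases of the Cd247 promoter were covered in each of the 4 lists. The promoters thus range from one covered in full by every list (Cd247) to one touched by a single DP list (Cd3d).

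The ETS core stood in 3 of the 4 promoters, 18 bp before the start of Cd3e, 58 bp before that of Cd247 and 199 bp before that of Cd3d, counted to the first base of the match. The same letters occur in 19.7% of the 32851 promoters in the RefSeq table over the same 250 bases. The E-box stood in 3 of 4, at 10 bp before the start of Cd247, 112 bp before that of Cd3d and both 148 and 35 bp before that of Cd3g, against 17.2% of all promoters. Both motifs were present in Cd3d and Cd247, the ETS core alone in Cd3e and the E-box alone in Cd3g. Of 8 other motifs searched on both strands, the GATA core (GATAA) occurred in Cd3g, against 22.6% of all promoters. The GC box (GGGCGG) was found in Cd3g (32.7% of promoters), the TCF core (CTTTGA) 2 times in Cd3d (13.8%) and part of the cyclic AMP response element (TGACG) in Cd3e (17.8%). A RUNX core (TGTGGT), the palindromic E-box (CAGCTG), the TATA box letters TATAAA and the CCAAT box were not found in these windows, and occur in 12.4 to 33.8% of promoters. Matches to different motifs could share bases. Matches are letters in the sequence and do not show that a factor binds. The promoters of Cd3d and Cd247 had a GC content of 41.2% each, that of Cd3g 51.6% and that of Cd3e 57.2%, against a median of 52.4% over all promoters.

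The Cd3 cluster was open mainly in the DP lists. Its window of 120.1 kb (chr9:44929572-45049663) held 11 and 9 peaks in DP 1 and DP 2, against 1 peak in each of DN 1 and DN 2. Both DP lists stood well above both DN lists, and the groups did not overlap. The means were 10 ± 1.41 peaks in DP and 1 ± 0 in DN lists (SD, n = 2 each), a difference of 9. Over the 4 samples the two-sided exact permutation test gave p = 0.333, the smallest value that 2 samples against 2 allow, so this design cannot pass a threshold of 0.05. Scaled to list length, the values were 2.77 and 1.28 peaks per 10000 in the DP lists against 0.258 and 0.302 in the DN lists, again without overlap. Peaks covered 4500 bp of the window in each DP list, against 300 and 350 bp in DN 1 and DN 2. With the gene spans alone, without the 40 kb, the difference was 5 peaks.

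Differences of this kind were common in the genome. Of 21883 protein-coding gene windows drawn the same way, 39.7% held more peaks in both DP lists than in both DN lists, and 3.54% fewer. Per 10000 peaks these shares were 28.3% and 15.7%. The separate windows of Cd3e, Cd3d and Cd3g overlap each other and share most of their peaks, so the 3 genes are not independent cases. In peaks per 100 kb, the cluster had 9.16 and 7.49 in DP 1 and DP 2, where the median protein-coding gene window had 2.26 and 3.06. In DN 1 and DN 2 it had 0.833 each, where the median window had 1.59 and 1.02. The cluster was therefore denser than the median gene in each DP list and sparser in each DN list. Against the 90th percentile of gene windows it lay above in DP 1 (6.93) and below in DP 2 (7.76).

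**Figure D1:**
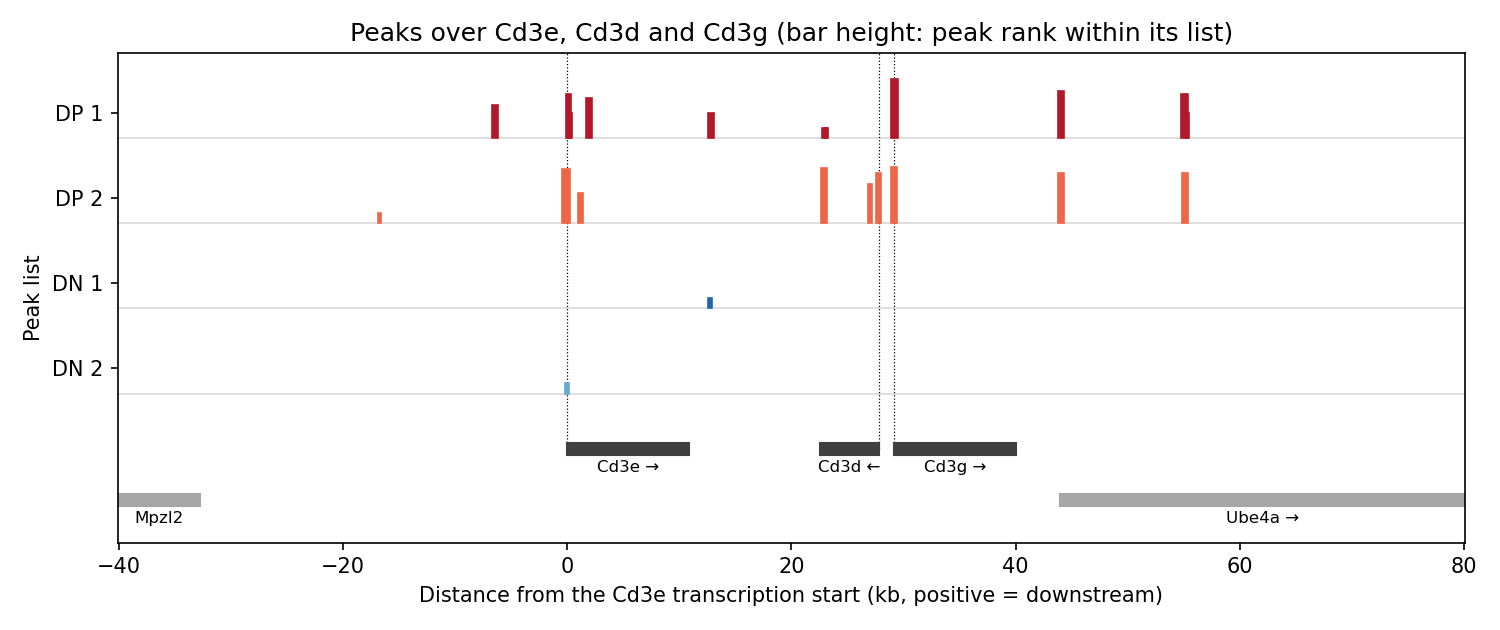
Peaks of the 4 lists (rows) over the Cd3 cluster, by distance in kb from the Cd3e start, with positive distances downstream of it. Bars are peaks to scale in width, and are taller the better the peak ranks by p-value in its own list (the shortest bars are tied at the largest p-value). Dark boxes are member gene spans, grey boxes other genes, arrows the direction of transcription and dotted lines the starts. The DP rows hold 11 and 9 peaks and the DN rows 1 each, both among the shortest bars.

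The peaks of the cluster merged into 12 regions, all 12 held by at least 1 DP list and 2 by a DN list as well. Of these regions, 4 were DP-only, meaning held by both DP lists and neither DN list, 0 were DN-only, and 0 were held by all 4 lists. Across all merged regions 7.44% were DP-only, 2.51% DN-only and 7.39% held by all lists. A further 6 regions came from 1 DP list alone, 2 from DP 1 and 4 from DP 2. Regions held by 1 list alone, whether DP or DN, make up 71.8% of all merged regions. Without DP 1, when DP 2 alone stands for its group, 8 regions counted as DP-only.

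Cd3g, whose product is the gamma chain, had the strongest peak of the cluster at its start. Each peak is given here with its place in its list, as the share of that list's peaks with a p-value as small or smaller, so that a low share is a better rank and 100% is a tie at the largest p-value. The region over the Cd3g start (chr9:44980101-44980700) was DP-only. Its peaks were 600 bp wide in DP 1 (deposited value 2.93e-07, top 7.85%) and 550 bp in DP 2 (2.84e-05, top 12.2%). These deposited values are the authors' own p-values and rank peaks within a list only.

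Cd3d, whose product is the delta chain, had peaks at its start and at its far end. Over the start (chr9:44981651-44982050), DP 2 alone held a peak, of 400 bp, in the top 23.2% of its list. DP 2 also held a peak 790 bp past the start (chr9:44982401-44982750, top 44.5%). The starts of Cd3g and Cd3d lie close together, but in DP 1 the first was in a peak and the second was not. Near the end of Cd3d, and just short of it, lay a DP-only region (chr9:44986301-44987000), with its midpoint 401.5 bp inside the 3′ end of the gene. That region ranked in the top 14.4% of DP 2, but DP 1 held it only with 2 overlapping peaks tied at its largest p-value.

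Cd3e, which encodes the epsilon chain found in both heterodimers, was the only gene of the cluster with a DN peak at its start. The region there (chr9:45009201-45010050) was held by both DP lists and DN 2. The best peak within it was 450 bp wide in DP 1 (top 35.5%) and 700 bp in DP 2 (top 17.4%), against 350 bp in DN 2, tied at the largest p-value of that list. DN 1 held none. Inside the gene, DP 1 held a peak 1.96 kb past the start (chr9:45007401-45007900) and DP 2 a different one 1.19 kb past it (chr9:45008201-45008650), so neither was shared by the DP lists. Downstream of the gene, 1934.5 bp past its 3′ end, a region (chr9:44996551-44997050) was held by DP 1 (500 bp, top 70.9%) and by DN 1 (300 bp, at the largest p-value). This was the single peak of DN 1 in the window. Upstream of Cd3e each DP list held 1 peak that the other lacked, at 6440 bp in DP 1 and 16740 bp in DP 2.

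The other DP-only regions of the window lay over the neighbouring gene Ube4a, a ubiquitin ligase gene. They stood 49.5 bp from its start (chr9:44965251-44965850), with places in the top 29.7% of DP 1 and 24.7% of DP 2, and further inside it (chr9:44954151-44954900), in the top 35.5% and 23.2%. With the gene spans alone, 2 DP-only regions remained in the cluster, those at the Cd3g start and the Cd3d end. Mpzl2, which reaches into the far edge of the window, had no peak in the part that lies there.

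Cd247 carried many more peaks than the cluster, in both stages. Its window of 171.2 kb (chr1:165739952-165911153) held 20 and 23 peaks in DP 1 and DP 2, against 14 and 4 in DN 1 and DN 2. Both DP lists had more than either DN list, and the DN lists differed from each other by more than DN 1 did from DP 1. The means were 21.5 ± 2.12 in DP and 9 ± 7.07 in DN lists (SD, n = 2 each), a difference of 12.5 (two-sided exact permutation p = 0.333, the smallest possible). The difference rested partly on DN 2. Without that list it was 7.5. Per 10000 peaks of a list the values were 5.04 and 3.27 in DP 1 and DP 2, against 3.61 and 1.21 in DN 1 and DN 2. On that scale the groups overlapped in the window, since DP 2 fell below DN 1 (exact permutation p = 0.667). In the Cd247 span alone, without the 40 kb, they did not overlap. There DP 1 and DP 2 had 4.03 and 2.84 peaks per 10000, against 2.06 and 0.906 in DN 1 and DN 2. The exact permutation p for the span was 0.333, the smallest possible. By number, 16.2% of all protein-coding gene spans held more peaks in both DP lists than in both DN lists. Per 10000 peaks, 28.3% of gene windows did so, and the share for spans was not computed. Over the whole window, peaks covered 10200 and 12500 bp in the DP lists, against 5400 and 1650 bp in the DN lists. In peaks per 100 kb the window had 11.7 and 13.4 in DP 1 and DP 2, and 8.18 and 2.34 in DN 1 and DN 2. These densities lay above the 90th percentile of all protein-coding gene windows in DP 1, DP 2 and DN 1 (6.93, 7.76 and 4.83) and below it in DN 2 (3.38).

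**Figure D2:**
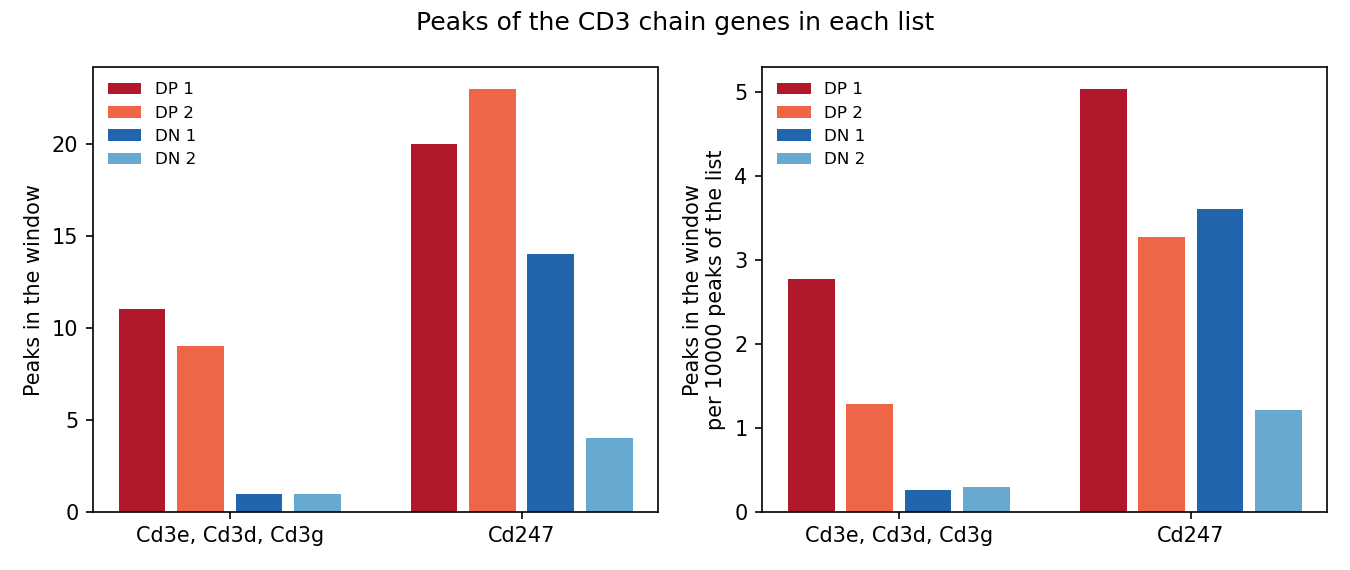
Peaks of the Cd3 cluster and of the Cd247 window in each list, as numbers (left) and per 10000 peaks of the list (right). Bars are single lists, with no error. In the cluster both DP lists exceed both DN lists on either scale, while at Cd247 DP 2 (3.27) lies below DN 1 (3.61) on the right.

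The Cd247 peaks merged into 24 regions. Of these, 6 were DP-only, 1 was DN-only and 3 were held by all 4 lists, and 5 more were held by both DP lists and DN 1. DN 1 held 11 of the 24 regions and DN 2 held 4. Of the 22 regions in at least 1 DP list, 9 (40.9%) were also in a DN list, compared with 2 of 12 (16.7%) in the Cd3 cluster and 26.2% over all merged regions. This difference between the loci was not tested. Windows with at least 6 DP-only regions made up 0.69% of the 21883 protein-coding gene windows, which were not matched for length. DP-only regions at Cd247 numbered 13 without DP 1 and 11 without DN 1, and regions in all remaining lists numbered 8 without DN 2.

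At the Cd247 start, a region held by all 4 lists (chr1:165788401-165789050) had a wider peak in each DP list than in each DN list. The peak was 650 bp wide in DP 1 (deposited value 1.48e-05, top 13.6%) and 550 bp in DP 2 (3.83e-05, top 15.2%). It was 500 bp wide in DN 1 (0.000144, top 38.5%) and 300 bp in DN 2, tied at that list's largest value of 0.00054. The first base of the peak was the same in all 4 lists, where peak edges lie on a grid of 50 bp. Places are within lists of different length and ties, and are not compared between lists. Just past it, 744 bp from the start, lay a DP-only region (chr1:165789151-165789700). At 1.49 kb DP 2 held a peak that no other list had.

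The body of Cd247 held the remaining DP-only regions. All 6 lay inside the gene span, and 5 of them between 14.5 and 65.2 kb past the start, with widths of 550 to 850 bp. The best ranked of these was at 60.3 kb (chr1:165848601-165849450), in the top 14.9% of DP 1 and 6.8% of DP 2, followed by one at 55.1 kb (chr1:165843451-165844100), in the top 20.6% and 9.6%. Regions at 14.5 kb (chr1:165802951-165803500) and 65.2 kb (chr1:165853551-165854150) were each in the top 32.0% of DP 1, and in the top 15.2% and 13.4% of DP 2. The weakest, at 49.0 kb (chr1:165837451-165838000), was in the top 57.1% of DP 1 and 61.5% of DP 2. Between 49.0 and 65.2 kb past the start, both DP lists thus held a run of 6 regions, of which 4 were in neither DN list.

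Within that run, a wide region at 56.4 kb (chr1:165844451-165845800) was held by all 4 lists. Peaks covered 1350 and 1300 bp of it in DP 1 and DP 2, against 450 and 300 bp in DN 1 and DN 2. Its best peak stood in the top 22.4% of DP 1, 7.79% of DP 2 and 64.6% of DN 1. In DN 2 it was tied at the largest p-value of that list. The DN 1 and DN 2 peaks of this region share no base and were joined through peaks of the DP lists. A region at 52.3 kb (chr1:165840551-165841400) joined peaks of DP 1 and DN 1 that do not touch each other, through a wider peak of DP 2.

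The best ranked region inside the gene lay 13.5 kb past the start (chr1:165801751-165802600). Its peaks carried the smallest p-value of the lists, 1e-12, in DP 1 (750 bp) and DP 2 (850 bp), as did 6.38% and 4.44% of all peaks there. DN 1 held it with a peak of 400 bp in the top 64.6%, and DN 2 did not hold it. It therefore did not count as DP-only. A region at 39.9 kb (chr1:165828051-165829200) was likewise held by both DP lists and DN 1.

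Against this direction, 1 region inside Cd247 was DN-only. It lay 22.7 kb past the start (chr1:165811101-165811650). Its peaks were 550 bp wide in DN 1 (deposited value 6.19e-05, top 24.3%) and 450 bp in DN 2 (0.000155, top 36.8%), and neither DP list held a peak there. In DN 1 and in DN 2 this peak ranked above the one at the Cd247 start. A window with at least 1 DN-only region occurred at 9.44% of protein-coding genes, one with at least 1 DP-only region at 41.8%, and one with at least 1 region of all 4 lists at 45.9%.

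**Figure D3:**
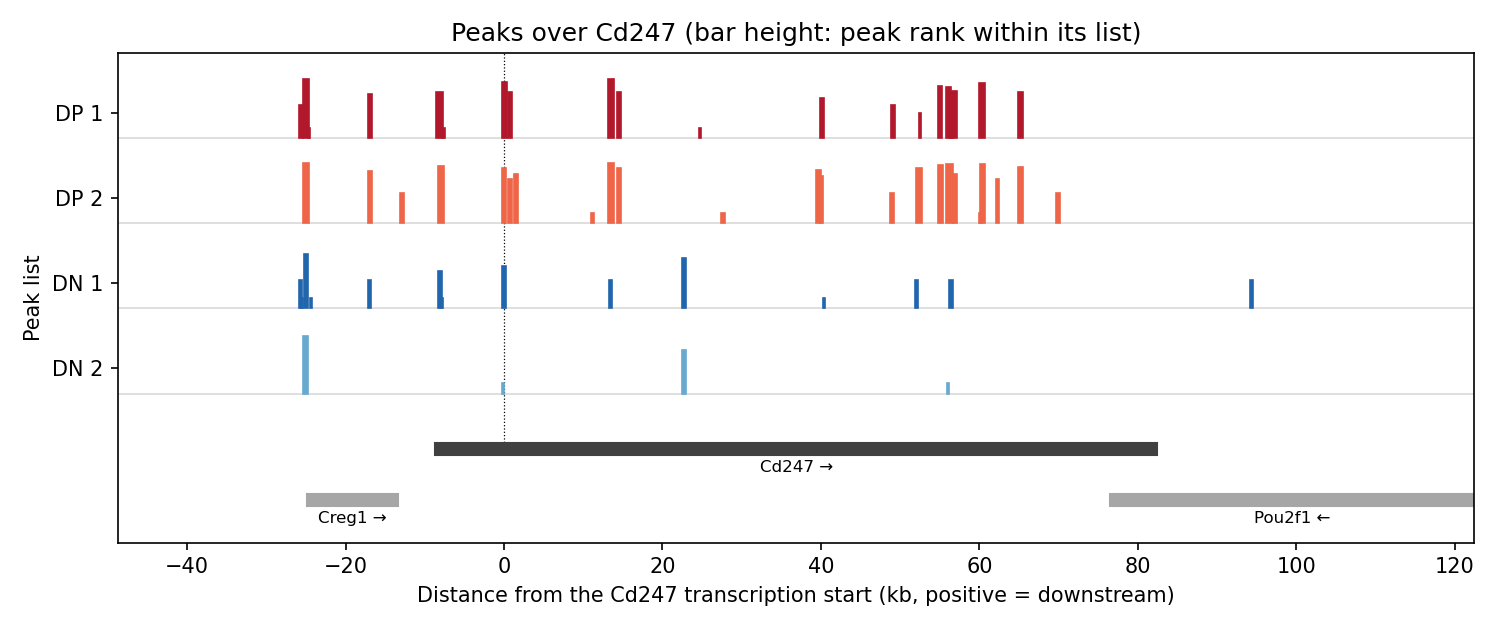
Peaks of the 4 lists (rows) around Cd247, by distance in kb from its start, with positive distances downstream. Bars are peaks to scale in width and are taller the better the peak ranks by p-value in its own list. The dark box is the Cd247 span and the grey boxes are other genes. The DN-only region stands at 22.7 kb, and the 6 DP-only regions at 0.744, 14.5, 49.0, 55.1, 60.3 and 65.2 kb.

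Upstream, the annotated Cd247 span begins 8729 bp before the listed start, and a region lay near that edge, with its midpoint 723.5 bp inside it (chr1:165780151-165781200). It was held by DP 1 (top 32.0%), DP 2 (top 11.7%) and DN 1 (top 48.0%), but not by DN 2. The strongest DN peaks of the window belonged to the neighbouring gene Creg1, which encodes a secreted glycoprotein. The region over the Creg1 start (chr1:165763351-165764450) was held by all 4 lists, in the top 6.38% and 4.44% of DP 1 and DP 2 and the top 16.4% and 9.4% of DN 1 and DN 2. Inside Creg1 a region (chr1:165771451-165772050) was held by both DP lists and DN 1. Past the end of Cd247, inside Pou2f1, which encodes the octamer-binding factor OCT1, DN 1 alone held a peak (chr1:165882801-165883250). With the Cd247 span alone, the lists held 16 and 20 peaks in DP against 8 and 3 in DN, a difference of 12.5.

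Taking the 4 starts side by side, both DP lists held a peak within 1000 bp at 3 (Cd3e, Cd3g and Cd247), and DP 2 at Cd3d too. Only Cd247 was held by both DN lists, and only Cd3g by both DP lists and neither DN list. Of 17491 protein-coding genes with a listed start, 46.5% had a peak there in both DP lists, 25.4% in both DN lists, 23.7% in all 4 lists and 10.2% in both DP and neither DN list. By list, the share of starts held was 49 and 51.7% in DP 1 and DP 2, against 39.3 and 27.8% in DN 1 and DN 2. In a sorted population, a site open in fewer cells and a site less open in each cell cannot be told apart.

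Peak widths were compared with those of whole lists. The median width of peaks in the Cd3 cluster was 500 and 550 bp in DP 1 and DP 2, against 300 and 350 bp for the single peaks of DN 1 and DN 2. At Cd247 it was 550 bp in each DP list, against 400 and 375 bp in DN 1 and DN 2. The medians over whole lists were 450 and 400 bp in DP 1 and DP 2, and 400 and 350 bp in DN 1 and DN 2. In each DP list the median width at both loci was thus above that of the whole list. At Cd247 the median of the 4 DN 2 peaks, 300 to 600 bp wide, was also above that of its list. The DN 1 median there equalled that of its list. Both DN peaks of the Cd3 cluster, and 4 of 14 and 2 of 4 peaks at Cd247 in DN 1 and DN 2, were tied at the largest p-value of their list, a tie that 35.4 and 44.2% of all their peaks shared.

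The genes that act with the CD3 chains showed the same lean. Of a list of 29 other receptor, kinase, adaptor and coreceptor genes, 25 had more peaks in both DP lists than in both DN lists, 0 fewer, and 4 overlapped. The share of all protein-coding genes with more was 39.7%, the one given above. The median difference was 5.5 peaks for the list and 1 peak for all genes. Per 10000 peaks, 19 of the 29 were higher in both DP lists (28.3% of all genes) and 1, Themis, was lower (15.7%), and with gene spans alone 16 were higher by number, against 16.2% of all protein-coding genes. This list was chosen with earlier results of these data known.

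The largest differences belonged to coreceptors. Cd8b1 had 20 and 18 peaks in DP 1 and DP 2 against 0 and 1 in DN 1 and DN 2, and Cd8a, its neighbour with an overlapping window, 15 and 15 against 0 and 1. Cd4 had 17 and 17 against 7 and 5. These genes encode the surface proteins by which the cells were sorted. The Src-family kinase gene Fyn had 17 and 14 peaks in DP 1 and DP 2 against 8 and 3 in the DN lists, but per 10000 peaks its groups overlapped. Cd5, an inhibitory surface receptor gene, had 9 and 13 against 4 and 0, and its neighbour Cd6 had 6 and 12 against 1 and 0. Lck and Ptprc, which encode a kinase and a phosphatase of the pathway, tied with Cd6 at a difference of 8.5 peaks.

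At the other end, Themis, needed in mice for positive selection, had 3 and 6 peaks in DP 1 and DP 2 against 4 and 5 in DN 1 and DN 2. Sos1, a Ras exchange factor gene, had 4 and 6 against 5 and 3. Fcer1g, whose product can stand in for zeta in some receptor complexes, had 4 and 4 against 4 and 2. In these 3 genes the groups overlapped. Nck1, an adaptor that binds the epsilon chain, had 6 and 5 peaks against 4 and 3, which did not overlap by number but did per 10000 peaks.

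**Figure D4:**
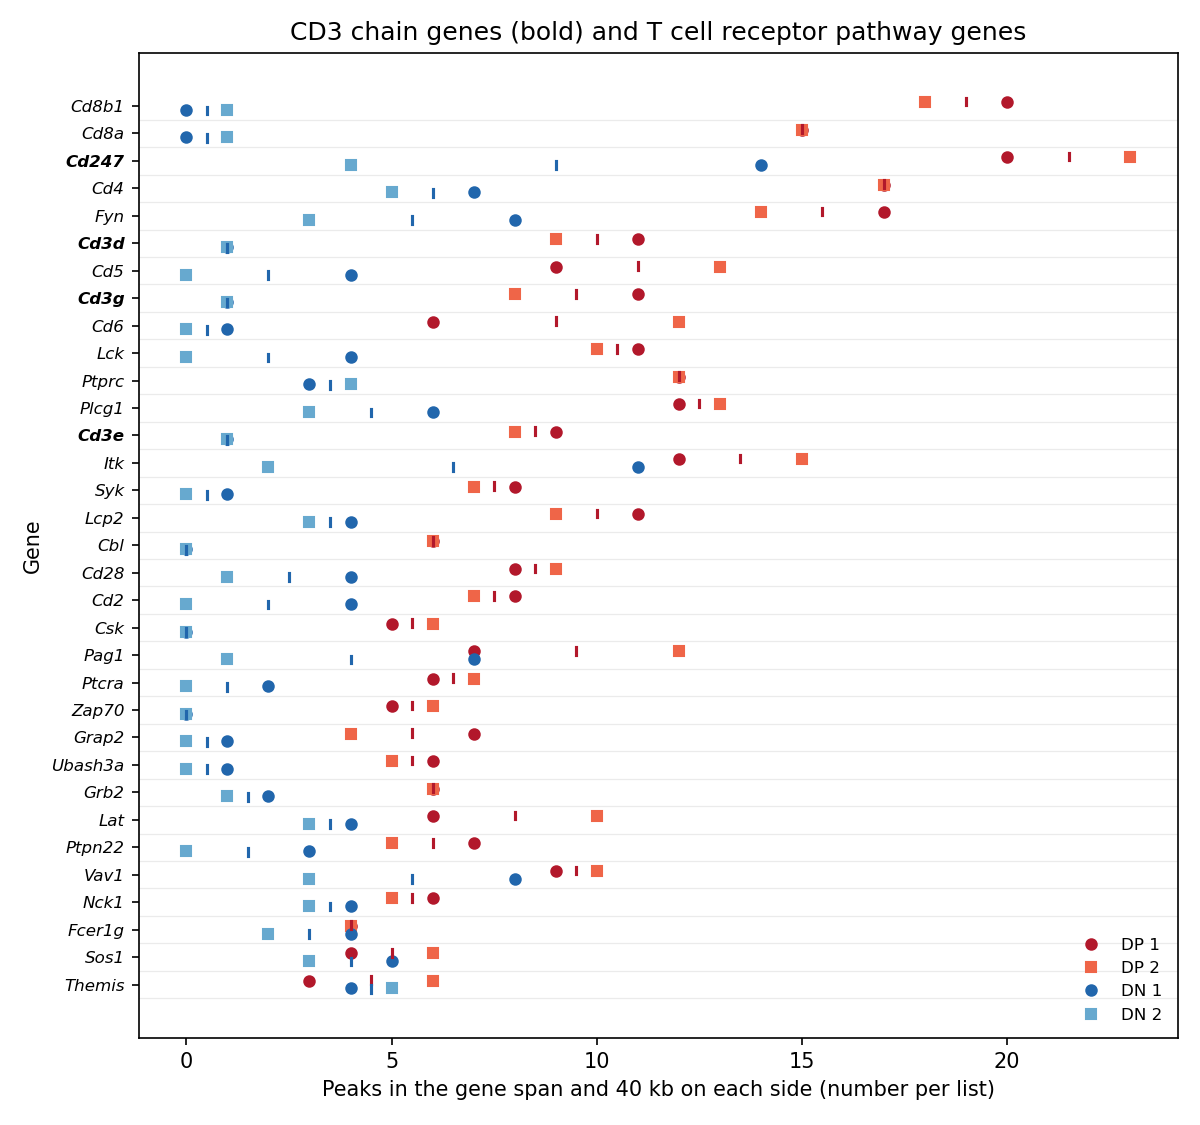
Peaks in the gene span and 40 kb on each side in each list, for the 4 CD3 chain genes (bold) and 29 pathway genes, ordered by the DP minus DN difference of the means. Points are lists and short vertical lines group means. Cd247 has 20 and 23 peaks in the DP lists against 14 and 4 in the DN lists, and the points of Themis, Sos1 and Fcer1g overlap.

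Across the 4 lists, the genes whose windows were most like the members were found from the bp covered by peaks per kb of window and per Mb covered by the list, by the Euclidean distance to the values of the locus. For the Cd3 cluster these values were 1.97 and 1.24 in DP 1 and DP 2, against 0.147 and 0.221 in DN 1 and DN 2. The nearest of 21875 genes were Pabpc1 (distance 0.185), Chit1 (0.206) and Cxcr6 (0.206). For Cd247 the values were 3.13 and 2.41 in DP 1 and DP 2, against 1.86 and 0.73 in DN 1 and DN 2. Among the nearest were Junb (distance 0.25) and Rex1bd (0.266).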

How the data were processed

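ATAC-seq peak lists of 4 thymocyte samples, 2 DP and 2 DN, were used, with groups and replicate numbers from the sample titles. Positions are on mm10, and Bowtie2 and Picard were used, per the submitters' processing notes. The peak caller, known only from the name PeakDEck in the deposited file names, was run per sample, with settings and read filters not stated in the sources used here. Each deposited peak has a p-value set by the authors, tied at the largest value in 29.1 to 44.2% of a list, which served only to rank peaks within that list. Peaks are at least 300 bp wide. With no counts, no interval or floor could be computed.

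Peaks on chromosomes 1 to 19, X and Y of all lists were joined into regions where they overlapped by 1 bp or more. A region belongs to a window when it holds a peak with its midpoint there. Starts and promoter sequences came from RefSeq tables, which held all 4 members. Peak numbers were compared with a two-sided exact permutation test. Every member, every gene overlapping a window, 6 pathway genes of highest and 4 of lowest difference (ties by name), and the 3 genes most like each locus are named by rule, except 1 gene that is not reported here. Members and lists were chosen with earlier results of these data known. Alternatives were the top 50% of each list, lists of the shortest length, each list left out, a 50% overlap, joining within 250 bp, windows of 0, 20 or 100 kb, overlap in place of midpoints, peaks per 10000, bp covered, starts within 500 or 2500 bp and a replicate block. Counting overlapping peaks of a list once was added after the data were seen. The code for region classes was run on simulated lists and returned the planted number of each class. Peaks of different simulated regions were kept too far apart to meet. That check therefore could not cover chains of overlapping peaks. Identical coordinates were shared by 1.33 to 6.25% of the shorter list of a pair, so no list was a copy of another. Python 3.11.15, numpy 2.4.6, pandas 2.3.3 and matplotlib 3.10.9 were used.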

Additional observations from a re-analysis of the deposited data

How the results depend on the processing

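The DP minus DN difference in peaks kept its direction at both loci under all 14 alternatives run for each. With all 4 lists, exact permutation p-values were 0.333 for the Cd3 cluster and 0.333 to 0.667 for Cd247. The design lets none of them pass 0.05. The difference was 8 to 10 peaks in the cluster and 7.5 to 17.5 at Cd247 when a list was left out. With the replicate number as a block, it was 9 and 12.5 peaks with an exact sign-flip p of 0.5, the smallest that 2 pairs allow, and the deviations of DP 1 and DN 1 from their group means had a positive correlation of 0.272 across genes. No label ties the numbers to a shared animal or batch, and 2 pairs are too few to take them as pairing the samples. Counts of regions moved more. Leaving out each list gave 4 to 8 DP-only regions in the cluster and 6 to 13 at Cd247, 0 to 1 regions held by all remaining lists in the cluster and 3 to 8 at Cd247. A list that stands alone for its group needs no other list to hold the region, which by construction adds regions. In the top 50% of each list 1 region at Cd247 was held by all 4 lists, against 3 over whole lists. With windows of 0 kb the cluster had 2 DP-only regions and 16 pathway genes had more peaks in both DP lists, against 16.2% of all protein-coding genes. The other settings left counts of regions, starts and pathway genes within 1.5 times of those reported. The lists hold no counts, so missing peaks and low depth cannot be told apart.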
